A study of Arabidopsis thaliana with 6 samples.

Results

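The thalianol and marneral gene clusters are 2 groups of neighbouring genes on chromosome 5 of Arabidopsis thaliana whose enzymes build and modify root triterpenes. The 7 genes described here were chosen by locus: AT5G47980, AT5G47990 (CYP705A5), AT5G48000 (CYP708A2) and AT5G48010 (THAS1) of the thalianol cluster, and AT5G42580 (CYP705A12), AT5G42590 (CYP71A16) and AT5G42600 (MRN1) of the marneral cluster. They are 7 of the 37899 genes in the TAIR10.1 annotation. The choice applied no cutoff on measured values, but it was made with earlier results of these data known. H3K27me3, trimethylation of lysine 27 of histone H3, was measured by ChIP-seq in 14-day-old seedlings of the wild type (wt, accession Col) and of brm. The brm plants carry brm-1, a null T-DNA allele of BRAHMA (BRM), the gene for an ATPase of SWI/SNF remodellers. For each genotype there were 2 libraries from the H3K27me3 immunoprecipitation and 1 input library, made from the sonicated chromatin before that step. Chromatin came from whole seedlings, so a mark carried by part of the cells cannot be told apart from a weaker mark in all of them.

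H3K27me3 is laid down by Polycomb repressive complex 2 and covers genes that are kept silent in a given cell. SWI/SNF remodellers use ATP to move or evict nucleosomes, and in plants as in animals they are known to counteract Polycomb at part of its targets. In a metabolic gene cluster, non-homologous genes for successive steps of a pathway lie side by side. An oxidosqualene cyclase first folds 2,3-oxidosqualene into a triterpene scaffold, and cytochrome P450 enzymes and acyltransferases then decorate it. Both clusters are known for expression mainly in roots and for silence in most aerial tissue.

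The H3K27me3 libraries held between 8408612 and 9593473 uniquely mapped reads and the inputs 5676681 and 6342835. Duplicates were frequent in the H3K27me3 libraries, where 2115598 to 3213347 positions were distinct. Levels are given as RPM, the reads over a gene per 1000000 nuclear reads of its library, and as RPM per kb where genes of different length are compared. The mutated gene BRM (AT2G46020) lay well below its inputs of 97.1 and 74.2 RPM (wt, then brm, as for all inputs given below), with 14.5 and 15.4 RPM in wt and 18.9 and 20.5 RPM in brm, so its reads do not check the genotype labels. Reads mapped to single places in nearly all of the 7 genes: between 96.8% (CYP708A2) and 100% (AT5G47980 and CYP71A16) of their 37-base stretches occur once in the genome.

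The sequences just upstream of 3 of the 7 genes are shown because they hold contrasting amounts of the mark. They are the 250 bases before the annotated start in TAIR10.1, credited to RefSeq and written 5′ to 3′ on the strand of the gene.

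THAS1 (plus strand, chr5:19456587-19456836): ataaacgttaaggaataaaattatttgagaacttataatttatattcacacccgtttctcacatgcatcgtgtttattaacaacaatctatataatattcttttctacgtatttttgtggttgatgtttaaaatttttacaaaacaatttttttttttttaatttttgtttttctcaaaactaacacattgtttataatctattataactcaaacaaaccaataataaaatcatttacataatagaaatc
MRN1 (plus strand, chr5:17053203-17053452): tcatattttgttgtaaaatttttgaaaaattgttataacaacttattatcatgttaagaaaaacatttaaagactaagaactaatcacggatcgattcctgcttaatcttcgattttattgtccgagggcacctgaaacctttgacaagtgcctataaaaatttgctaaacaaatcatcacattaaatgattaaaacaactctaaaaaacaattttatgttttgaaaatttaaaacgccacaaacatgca
CYP705A5 (plus strand, chr5:19434508-19434757): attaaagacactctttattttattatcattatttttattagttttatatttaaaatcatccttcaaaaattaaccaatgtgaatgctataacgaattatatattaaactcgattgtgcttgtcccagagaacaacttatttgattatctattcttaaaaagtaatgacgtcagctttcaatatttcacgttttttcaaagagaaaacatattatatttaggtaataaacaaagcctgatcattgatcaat

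The letters are all in lower case because none of the 3 motifs searched was found. AAACCCTA, GAGAGAGA and CTCTGTTT, motifs described at Polycomb target genes of Arabidopsis, were looked for on both strands. None occurred in this window of any of the 7 genes. The same motifs occurred in 4.49%, 4.91% and 3.41% of the 27443 promoters of protein-coding genes. Over the MRN1 sequence, the H3K27me3 level was 47.6 and 39.3 RPM per kb in wt and 44.6 and 46.1 RPM per kb in brm, against 3.15 and 2.11 RPM per kb in the inputs. Over the THAS1 sequence it was 9.81 and 19.0 RPM per kb in wt and 11.7 and 30.4 RPM per kb in brm, with inputs of 1.89 and 1.41 RPM per kb. The CYP705A5 sequence carried 14.95 and 15.9 RPM per kb in wt and 16.7 and 4.28 RPM per kb in brm, with inputs of 9.46 and 2.82 RPM per kb. MRN1 was thus the higher of these in every H3K27me3 library, and the wt and brm values overlapped for THAS1, for CYP705A5 and for MRN1. The sequences upstream of THAS1 and CYP705A5 are 79.2% and 76% A and T, and that of MRN1 is 72.8%. Those of CYP708A2 and CYP705A12 are also 72.8%, that of AT5G47980 is 73.2% and that of CYP71A16 is 68.4%. In RPM per kb, wt then brm, the CYP708A2 sequence held 25.2 and 18.6, then 32.9 and 28.5. CYP705A12 held 21.5 and 36.2, then 11.3 and 19.98. AT5G47980 held 44.8 and 55.7, then 20.8 and 41.4. CYP71A16 held 36.4 and 37.6, then 39.2 and 36.2. The 3 sequences shown were chosen for contrast and do not stand for all 7. A link between the share of A and T and the mark was not tested.

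Whether the genes carry the mark in seedlings was asked first, by comparing H3K27me3 libraries with the input. All 7 genes were higher in H3K27me3 than in input in wt and in brm (edgeR quasi-likelihood test with Benjamini-Hochberg adjustment over 36618 genes, FDR 0.05). Across the genome, 17.2% of the genes tested were called higher in wt and 17.1% in brm. The fold over input ran from 3.56 at CYP705A12 to 8.21 at THAS1 in wt, and from 3.71 at CYP705A12 to 9.19 at MRN1 in brm. The largest adjusted p among the 7 was 6.97e-05 in wt and 5.52e-05 in brm, both at CYP705A12. With 1 input per genotype, the spread in this test comes from the H3K27me3 replicates. Regions of H3K27me3 found in both replicates of a genotype covered all 7 genes over 100% of their span in wt. In brm they covered 94.7% of CYP705A12 and 100% of the other 6. A gene was called marked when such common regions covered at least 50% of it, which was so for 19.8% of all annotated genes in wt and 21.2% in brm.

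THAS1 encodes thalianol synthase, the oxidosqualene cyclase that opens the thalianol pathway. Its H3K27me3 reads amounted to 299.9 and 225.5 RPM in wt and to 222.4 and 266.5 RPM in brm, while the wt and brm inputs held 32.0 and 42.1 RPM. The first wt library was the highest, and the remaining 3 lay between 222.4 and 266.5 RPM, so the genotypes overlapped. The log2 fold change of brm over wt was −0.10 (SE 0.16, 95% confidence interval −0.44 to 0.23, adjusted p = 0.939, edgeR).

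CYP708A2 is the P450 that hydroxylates thalianol. It had 183.7 and 200.4 RPM in wt, 184.8 and 175.8 RPM in brm, and 24.1 and 29.4 RPM in the inputs. The genotypes overlapped here as well, with a log2 fold change of −0.09 (SE 0.15, interval −0.41 to 0.22, adjusted p = 0.944, edgeR).

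CYP705A5, the P450 that introduces a double bond into thalian-diol, had 108.2 and 118.1 RPM in wt and 99.2 and 93.6 RPM in brm. Its inputs were 15.8 and 17.6 RPM. Both brm libraries lay below both wt libraries. The log2 fold change of −0.23 was the lowest of the 7 (SE 0.17, interval −0.58 to 0.12) and did not pass the test (adjusted p = 0.807, edgeR). Separation of that kind was common, since the genotypes did not overlap, in either direction, at 37.6% of the 30906 genes tested.

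AT5G47980, a member of the BAHD acyltransferase family, had 101.1 and 138.9 RPM in wt, 116.7 and 125.0 RPM in brm and inputs of 14.8 and 15.3 RPM. Both brm values fell between the wt values. Its log2 fold change was 0.01 (SE 0.18, interval −0.36 to 0.38, adjusted p = 0.996, edgeR).

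MRN1 encodes marneral synthase, the cyclase of the other cluster. It held the most reads of the 7 genes, 352.1 and 342.4 RPM in wt and 356.9 and 352.1 RPM in brm, with inputs of 45.4 and 38.6 RPM. The 4 H3K27me3 libraries agreed closely. The log2 fold change was 0.03 (SE 0.13, interval −0.25 to 0.31, adjusted p = 0.986, edgeR), the narrowest interval among the 7 genes.

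CYP71A16, a P450 that oxidises marnerol, had 146.3 and 190.0 RPM in wt, 150.9 and 164.9 RPM in brm and inputs of 24.0 and 27.7 RPM. The brm values lay inside the wt range, and the log2 fold change was −0.09 (SE 0.17, interval −0.44 to 0.25, adjusted p = 0.951, edgeR). CYP705A12, the P450 at the other end of the marneral cluster, had the fewest reads of the 7 genes, 57.0 and 63.2 RPM in wt and 63.0 and 61.1 RPM in brm, with inputs of 16.9 and 16.7 RPM. Its genotypes overlapped, with a log2 fold change of 0.05 (SE 0.20, interval −0.37 to 0.46, adjusted p = 0.986, edgeR).

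**Figure D1:**
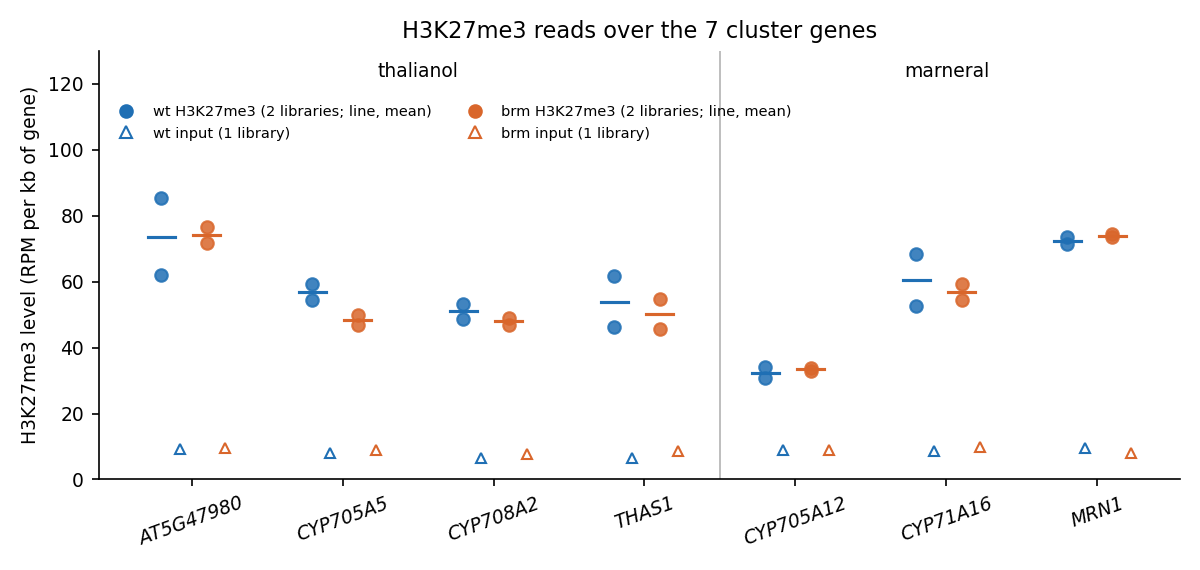
H3K27me3 level of the 7 cluster genes in RPM per kb of gene. Circles are single H3K27me3 libraries with their mean as a line, triangles are the inputs, wt is blue and brm is orange. All H3K27me3 values lie between 30.6 and 85.2 RPM per kb, above all inputs, and CYP705A12 is the lowest gene in every H3K27me3 library.

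None of the 7 genes passed the brm versus wt test in either direction, and none had an unadjusted p under 0.05 by edgeR, beside 7.74% of all genes tested. DESeq2 called none of them either. Over all 30906 genes tested, 0.0777% were called higher in brm and 0.0971% lower, a share at which 7 genes would be expected to hold no call. The median log2 fold change of the 7 genes was −0.09, beside −0.05 over all genes tested and −0.08 over genes marked in wt. The intervals bound the change in the share of reads that each gene held. The lowest lower limit was a fold of 0.668 (CYP705A5) and the highest upper limit a fold of 1.38 (CYP705A12). Libraries were scaled to their total reads, so a change common to the whole genome would not be seen. With 2 libraries per genotype, changes inside the interval of a given gene remain possible for that gene.

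Per unit of length, the order of the wt means was AT5G47980 with 73.6 ± 16.4 RPM per kb, MRN1 with 72.4 ± 1.43, CYP71A16 with 60.6 ± 11.1, CYP705A5 with 56.8 ± 3.5, THAS1 with 53.9 ± 10.8, CYP708A2 with 51.0 ± 3.14 and CYP705A12 with 32.3 ± 2.36 RPM per kb (SD, n = 2). Neighbours in this order overlapped in their wt libraries, except that both MRN1 values lay above both CYP71A16 values and CYP705A12 lay below all others. In brm the order was AT5G47980 with 74.2 ± 3.58 RPM per kb, MRN1 with 74.0 ± 0.704, CYP71A16 with 56.9 ± 3.57, THAS1 with 50.2 ± 6.40, CYP705A5 with 48.4 ± 2.002, CYP708A2 with 47.9 ± 1.70 and CYP705A12 with 33.4 ± 0.696 RPM per kb (SD, n = 2). There AT5G47980 and MRN1 overlapped each other and stood above the other 5 genes in both libraries, CYP705A12 again lay below the rest, and the 4 genes in between overlapped along the order. Among the genes marked in wt, 82.8% had a level per kb at or below that of MRN1 and 37.01% at or below that of CYP705A12.

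The position of the mark along each gene was read from the share of reads that lay between its start and its midpoint. At CYP708A2 that share was 57.7% and 65.7% in wt and 59.6% and 65.2% in brm, against 47.1% and 62.3% in the inputs. At MRN1 it was 45.3% and 51.5% in wt and 43.4% and 48.5% in brm, against 52.8% and 52.1% in the inputs. In wt both CYP708A2 values exceeded the input, in brm the input lay between them, and the MRN1 values lay at or below their inputs, beside a median of 54.4% to 54.9% in the 4 H3K27me3 libraries over 6244 marked genes. At THAS1 the share was 58.5% and 61.5% in wt and 52.2% and 54.9% in brm, with inputs of 46.8% and 34.3%. The THAS1 shares did not overlap between genotypes, which also held for 34.7% of the 6244 marked genes, and the difference was not tested.

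How the mark is laid out between the genes was examined in windows of 500 bp across each cluster and 10 kb on each side. The thalianol cluster spans 32819 bp (chr5:19428888-19461706) and carried 37.4 and 36.5 RPM per kb in wt and 35.7 and 37.7 RPM per kb in brm, against 7.12 and 7.54 RPM per kb in the inputs. Its 4 genes held 55.7 to 56.5 RPM per kb in wt and 50.9 to 53.9 in brm. The sequence between them held 25.03 to 25.9 RPM per kb in wt and 26.7 to 28.0 in brm, lower than over the genes and still above the inputs of 7.15 and 6.95 RPM per kb. The marneral cluster spans 34744 bp (chr5:17023502-17058245) and carried 43.9 and 44.1 RPM per kb in wt and 42.3 and 44.2 in brm, against 8.10 and 6.83 RPM per kb in the inputs. The sequence between its 3 genes held 36.9 to 38.4 RPM per kb in wt and 35.5 to 37.8 in brm. In both clusters the totals of the genotypes overlapped over the whole span. In the thalianol cluster both brm libraries lay below both wt libraries over the genes and above them between the genes. These differences were not tested.

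The mark over the thalianol cluster was called in separate blocks. In wt, common regions ran from 19427201 to 19439600, from 19442001 to 19448000 and from 19448801 to 19462200. In brm they ran from 19426801 to 19439600, from 19442001 to 19453600 and from 19454401 to 19462400. The right end lay 494 bp past the annotated end of THAS1 in wt and 694 bp past it in brm. The next gene on that side, AT5G48020, had 10.7 and 9.50 RPM in wt and 8.55 and 14.6 RPM in brm, whereas its inputs held 26.2 and 27.3 RPM. GFA2 (AT5G48030) and AT5G48040 beyond it were also below input in every H3K27me3 library, as was AT5G47970 on the left.

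A stretch outside the common regions separated CYP705A5 from CYP708A2. In the 4 windows from 19440001 to 19442000, where every 37-base stretch is unique, single H3K27me3 libraries held between 0.63 and 4.86 RPM per window. The inputs there held 1.73 to 3.63 RPM in wt and 1.41 to 5.81 RPM in brm. Single libraries exceeded their input in places, the furthest being the second wt library from 19440501 to 19441000, with 4.86 RPM against 1.73 RPM. In the first brm library the next island already began at 19441401. The window just before this stretch, 19439501 to 19440000, still had 10.04 and 9.50 RPM in wt and 5.11 and 7.25 RPM in brm. The stretch between the common regions had the same ends in wt and brm, after 19439600 and before 19442001. With gaps up to 200 bp instead of 600 bp within islands, the next region began at 19442201 in brm and still at 19442001 in wt. In the second replicate of each genotype, the island on the left ran to 19440000. No annotated gene lies in this stretch.

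The strongest window of the thalianol cluster in wt was the first that lies whole inside THAS1 (19457001 to 19457500). It held 59.3 and 56.6 RPM in wt and 47.7 and 45.2 RPM in brm, against 3.63 and 3.52 RPM in the inputs. Both brm values were lower, by a log2 fold change of −0.32 (SE 0.24) that did not pass the test (adjusted p = 0.82, edgeR over 97176 windows). The window was picked for its wt level, which by itself favours lower brm values. In brm the strongest window was instead 19429001 to 19429500 in AT5G47980, with 51.6 and 44.8 RPM in brm, 40.3 and 52.1 RPM in wt and inputs of 3.94 and 5.99 RPM.

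**Figure D2:**
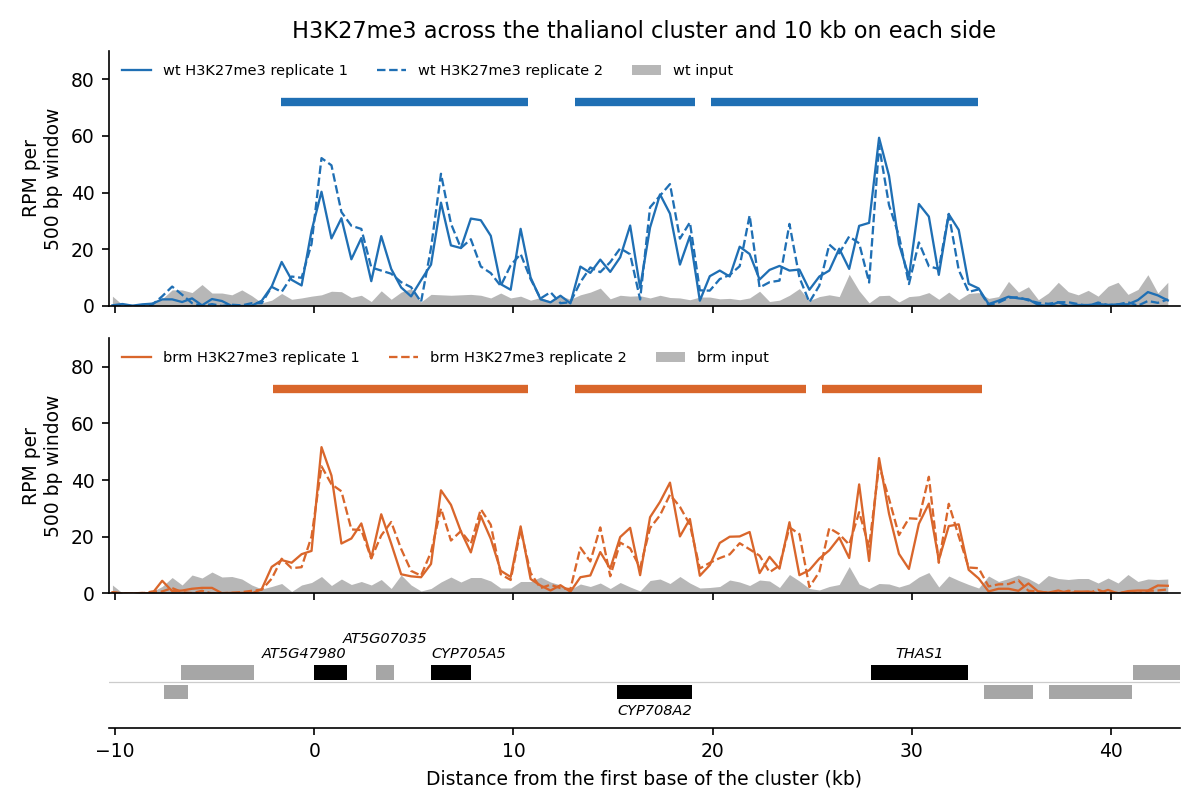
H3K27me3 across the thalianol cluster, in RPM per 500 bp window against the distance in kb from the first base of AT5G47980. Lines are the 2 H3K27me3 libraries of wt (blue) and brm (orange), grey areas are the inputs, thick bars are the common regions, black boxes are the 4 cluster genes and grey boxes are other genes, above the line for the plus strand. Between CYP705A5 and CYP708A2, in the 4 windows from 19440001 to 19442000, single H3K27me3 libraries hold at most 4.86 RPM, and the common regions of both genotypes end within 694 bp past THAS1.

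The marneral cluster was covered less evenly at its left end and more evenly at its right. Common regions in wt ran from 17023001 to 17025400 over CYP705A12, from 17027801 to 17029400, from 17030201 to 17043400 over CYP71A16 and from 17044201 to 17064000 over MRN1. In brm they ran from 17023601 to 17025400, from 17030401 to 17043200 and from 17044201 to 17063800. The region of 1600 bp between CYP705A12 and CYP71A16 was thus common in wt and not in brm. In brm only the second replicate had an island there. This difference depended on the gaps of up to 600 bp allowed within an island. With gaps up to 200 bp, wt had no separate common region between these genes, and brm had a region of 400 bp (17027401 to 17027800). The 1600 bp region was weak in every library. The window 17028001 to 17028500 within it had 6.77 and 7.62 RPM in wt and 3.13 and 3.45 RPM in brm, with 5.05 and 4.05 RPM in the inputs, and did not pass the test (log2 fold change −1.13, adjusted p = 0.70, edgeR).

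A break, again without a gene, followed CYP705A12. From 17026001 to 17027000 the H3K27me3 libraries held at most 2.62 RPM per window, where the wt input held 3.15 and 3.94 RPM and the brm input 1.23 and 1.59 RPM. In the break before 17044201, only 35.8% of the 37-base stretches in the window 17043501 to 17044000 are unique. Whether this made the break was not tested. In the first wt library an island ran across it, from 17030201 to 17064000.

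Between CYP71A16 and MRN1 lie 3 annotated genes for RNAs without a protein product, and all 3 were marked in both genotypes. AT5G00580 had 95.4 and 76.2 RPM in wt and 91.7 and 102.8 RPM in brm, with inputs of 14.3 and 11.1 RPM. AT5G06325 and AT5G06335 overlap each other on opposite strands, so they share reads that cannot be assigned to one of them. AT5G06335 had 45.9 and 54.4 RPM in wt and 51.1 and 52.8 RPM in brm, with inputs of 4.10 and 8.10 RPM. Per length these overlapping genes had more of the mark than any of the 7 cluster genes, 98.5 RPM per kb in wt for AT5G06335 and 116 RPM per kb for AT5G06325. None of the 3 passed the brm versus wt test (log2 fold changes −0.13 to 0.18, adjusted p = 0.887 to 0.986, edgeR).

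The strongest window of the marneral cluster in wt was the first that lies whole inside MRN1 (17053501 to 17054000), with 60.1 and 69.1 RPM in wt and 46.0 and 52.8 RPM in brm, with 7.73 and 4.76 RPM in the inputs. Both brm values were below both wt values, and the difference did not pass the test (log2 fold change −0.39, SE 0.24, adjusted p = 0.76, edgeR). This window too was picked for its wt level, which by itself favours lower brm values. The window before it, which holds the annotated start of MRN1, went the other way, with 22.2 and 28.6 RPM in wt against 34.9 and 32.7 RPM in brm, a difference that did not pass the test (adjusted p = 0.78, edgeR, at a log2 fold change of 0.41 with SE 0.27). Near the start of CYP71A16, inside the gene, the window 17033001 to 17033500 had 36.5 RPM in the first wt library and 81.4 RPM in the second, against 42.3 and 43.6 RPM in brm. The wt replicates stood further apart there than the genotypes did.

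**Figure D3:**
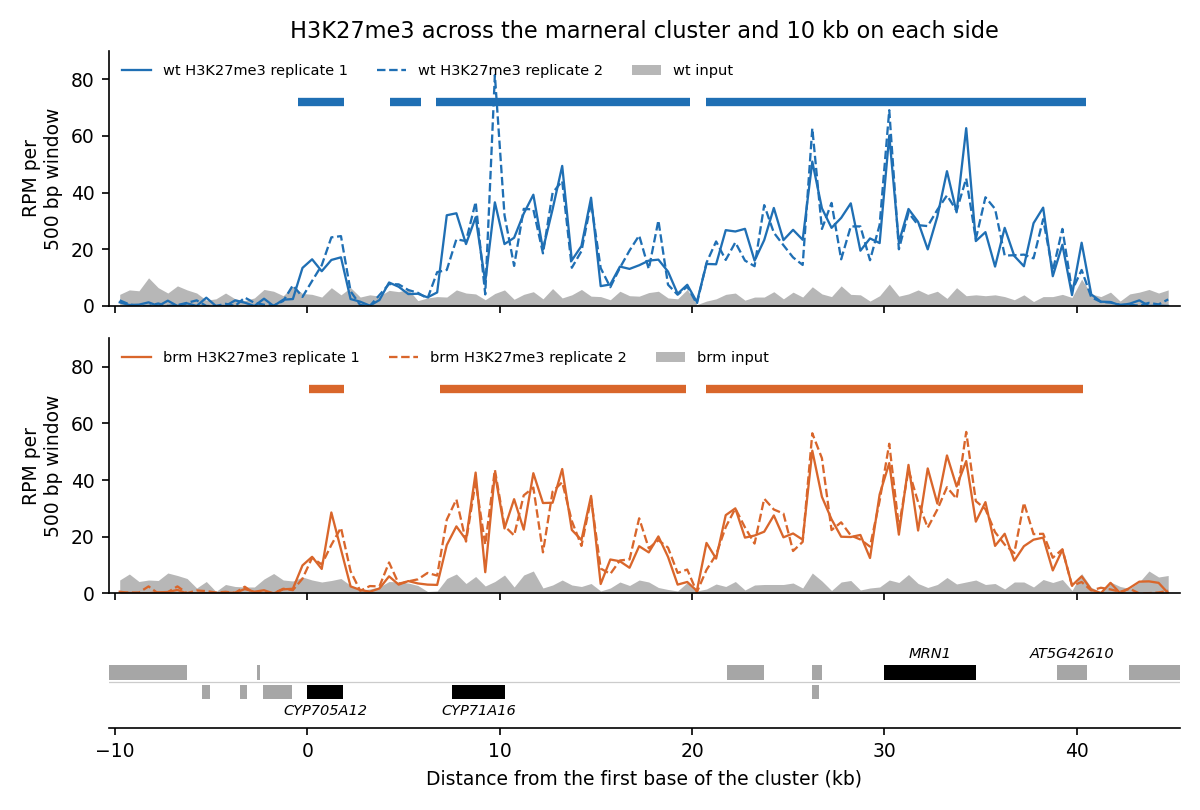
H3K27me3 across the marneral cluster, in RPM per 500 bp window against the distance in kb from the first base of CYP705A12. Lines are the 2 H3K27me3 libraries of wt (blue) and brm (orange), grey areas are the inputs, thick bars are the common regions, black boxes are the 3 cluster genes and grey boxes are other genes, above the line for the plus strand. The mark goes on past MRN1 and ends within AT5G42610.

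Of the 217 windows over both clusters and their flanks, 179 had enough reads to be tested, and none was called in either direction by edgeR. Over all 97176 windows tested, 0.00103% were called, so a count of 0 carries little information. An unadjusted p under 0.05 was found in 6 of the 179 windows, beside 7.52% of all windows. The profiles of the libraries were alike in shape: across the 67 windows of the thalianol span, Pearson's r of log2(RPM + 1) was 0.79 for the pair of wt libraries, 0.85 for the pair of brm libraries and 0.81 to 0.88 across genotypes. Across the 70 windows of the marneral span it was 0.91, 0.92 and 0.89 to 0.95. These are descriptions across neighbouring windows, which share fragments, mappability and base composition, and the same libraries correlated with their inputs at 0.15 to 0.57.

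The lowest p among all genes tested in the clusters and their flanks was found at the right border of the marneral domain. The domain passed 5755 bp beyond the end of MRN1 in wt and 5555 bp in brm, and ended within AT5G42610, a protein-coding gene (17062455 to 17064047). AT5G42610 had 51.3 and 47.1 RPM in wt and 25.1 and 24.6 RPM in brm, against 17.5 and 13.7 RPM in the inputs. The genotypes did not overlap, and the brm level was nearer to input than the wt level. The log2 fold change was −0.98 (SE 0.25, interval −1.50 to −0.46, unadjusted p = 0.00078), which did not pass after adjustment over all genes (adjusted p = 0.182, edgeR). The call depended on the setting, and 5 of 18 alternatives made it. Without the filter on low counts the adjusted p was 0.0428, without the first wt library 0.0472 and without the second 0.0204 (edgeR), while over all 18 it ran from 0.0204 to 0.9998. The size also depended on duplicates: with 1 read per position and strand the log2 fold change was −0.60 (adjusted p = 0.115, edgeR), and over the 18 alternatives it ran from −1.04 to −0.53.

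Among the windows whole inside the gene, the difference was widest in the last. In the window 17063501 to 17064000, which held 22.3 and 12.7 RPM in wt and 6.05 and 4.04 RPM in brm with inputs of 9.46 and 7.05 RPM, the log2 fold change was −1.79 (SE 0.45, adjusted p = 0.50, edgeR). In the first window that lies whole inside the gene, 17062501 to 17063000, it was −0.65 (SE 0.31, adjusted p = 0.68, edgeR), with 21.6 and 27.2 RPM in wt and 15.4 and 15.6 RPM in brm. Of the 7 windows that lie whole between MRN1 and AT5G42610, 6 had a lower fitted level in brm and 1 a higher one, with log2 fold changes from −0.68 to 0.60, and none passed the test (adjusted p = 0.61 to 0.998, edgeR). The lowest, 17061501 to 17062000, had 34.7 and 30.6 RPM in wt and 19.7 and 21.1 RPM in brm. The highest, 17060501 to 17061000, had 14.0 and 18.1 RPM in wt and 16.7 and 32.0 RPM in brm.

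Inside the thalianol cluster, the gene furthest from equal levels was the long non-coding RNA gene AT5G07035, between AT5G47980 and CYP705A5. It had 33.4 and 19.997 RPM in wt and 41.3 and 41.7 RPM in brm, with inputs of 6.78 and 6.17 RPM. Both brm libraries were higher, and the log2 fold change of 0.64 (SE 0.28, interval 0.05 to 1.23) did not pass the test (adjusted p = 0.602, edgeR). Of 18 alternatives, it was called in 2, both without the first wt library, the higher of the wt pair (log2 fold change 1.05 and adjusted p = 0.0242 with all reads, edgeR). Without the second wt library the log2 fold change fell to 0.31 (adjusted p = 0.746, edgeR). Of the 17 other genes within 10 kb of the clusters, 15 were tested, and none was called, beside 0.175% of all genes tested. An unadjusted p under 0.05 by edgeR was found at 4 of the 15, beside 7.74% of all genes tested. AT5G42610, RABA4C and XRN2 (AT5G42540) were lower in brm, and AT5G07035 was higher. The lowest log2 fold change was −1.81 at RABA4C (AT5G47960), where all H3K27me3 libraries lay below the inputs of 12.3 and 10.9 RPM (adjusted p = 0.524, edgeR).

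**Figure D4:**
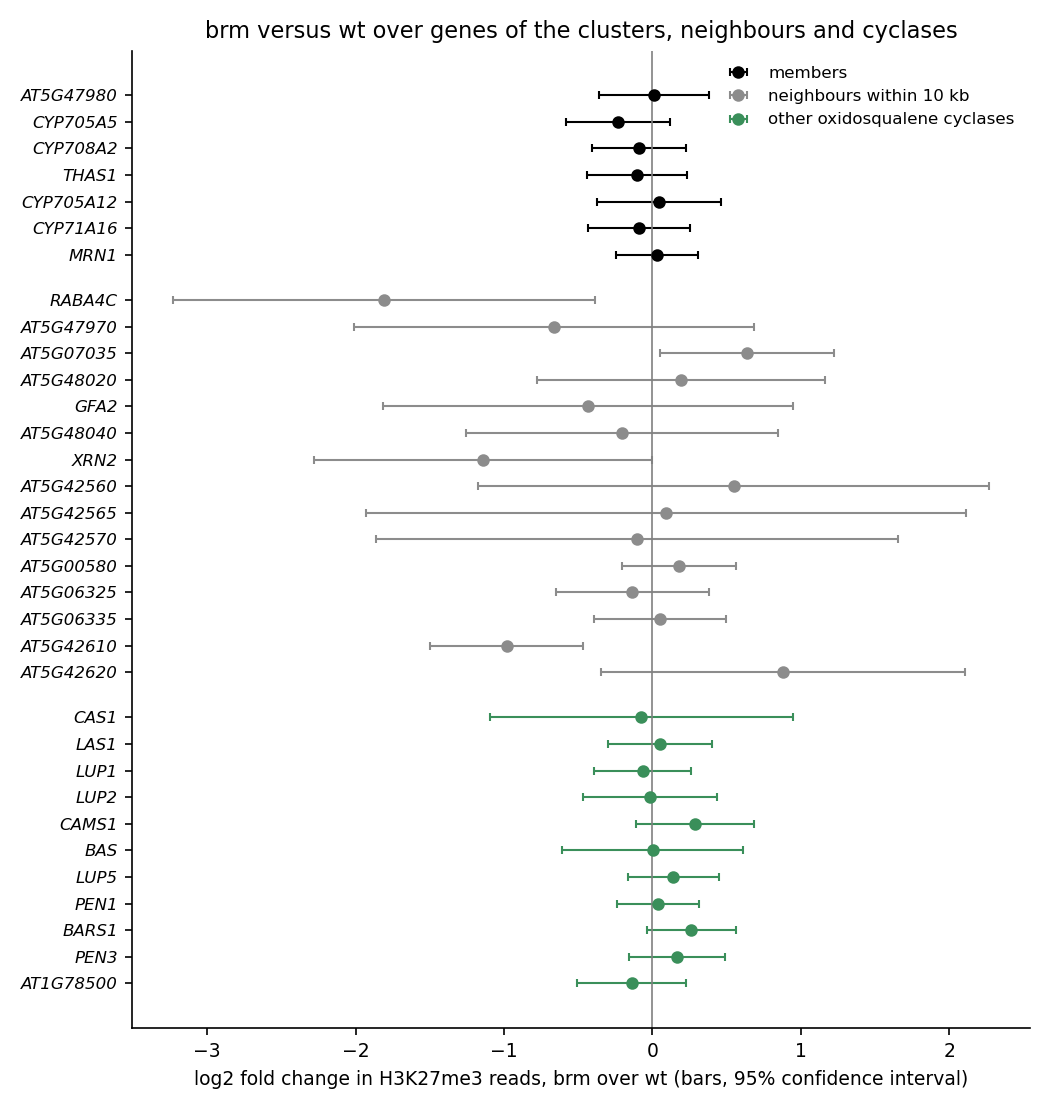
Log2 fold change of H3K27me3 reads, brm over wt, with 95% confidence intervals from edgeR, for the 7 cluster genes (black), 15 tested neighbours within 10 kb (grey) and 11 other oxidosqualene cyclase genes (green). The intervals of all 7 cluster genes include 0, and the interval of AT5G42610 runs from −1.50 to −0.46.

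THAS1 and MRN1 belong to a family of 13 oxidosqualene cyclase genes in Arabidopsis, and the other 11 were compared with them. CAS1 (AT2G07050), which makes the sterol precursor cycloartenol in all tissues, was far below input at 1.21 and 1.83 RPM per kb in wt and 1.57 and 1.32 in brm, against 8.61 and 10.03 RPM per kb. PEN1 (AT4G15340), arabidiol synthase, was the only other cyclase above THAS1 in its wt mean, with 65.9 and 60.9 RPM per kb in wt and 64.1 and 66.3 in brm. Its wt range overlapped that of THAS1 and lay below that of MRN1. BARS1 (AT4G15370), baruol synthase, had 41.4 and 37.3 RPM per kb in wt and 50.001 and 44.4 in brm, and the lupeol synthase gene LUP1 (AT1G78970) had 40.1 and 34.9 in wt and 38.4 and 33.3 in brm. The mark covered 6 of these 11 genes in wt and 7 in brm. The one marked in brm alone, CAMS1 (AT1G78955), camelliol C synthase, was covered over 43.9% of its span in wt and 66.4% in brm, on either side of the 50% limit, and its log2 fold change was 0.29 (SE 0.19, adjusted p = 0.776, edgeR). None of the 11 was called between genotypes, and their median log2 fold change was 0.04, beside −0.05 over all genes.

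**Figure D5:**
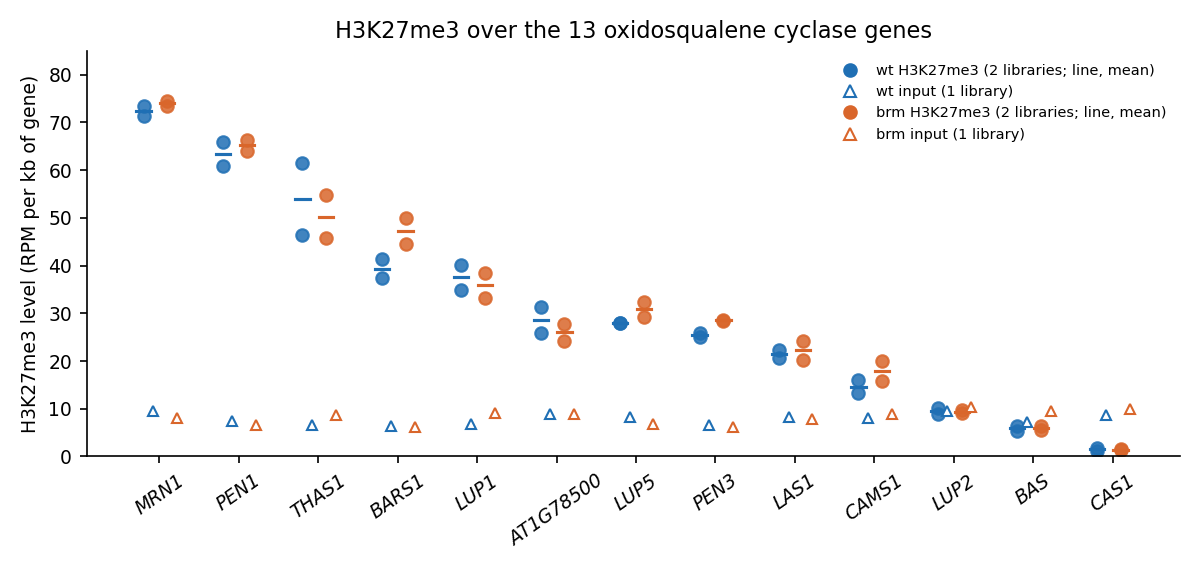
H3K27me3 level of the 13 oxidosqualene cyclase genes in RPM per kb, ordered by the wt mean. Circles are single H3K27me3 libraries with their mean as a line, triangles are the inputs, wt is blue and brm is orange. MRN1 is highest and CAS1 lowest in all 4 H3K27me3 libraries, and LUP2, BAS and CAS1 lie near or below their inputs.

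Genes next to other cyclases were examined as well. The 9 genes around PEN1 and BARS1 on chromosome 4, most of them P450 genes of the CYP702A and CYP705A families, were all marked in both genotypes, with wt means from 41.4 to 90.5 RPM per kb. None was called, and the median log2 fold change was 0.01. Of 5 genes around PEN3 (AT5G36150), which was itself marked in both genotypes, common regions marked 2 in wt and 3 in brm, and none was called. The widest difference in that group was at AT5G36130, with 2.57 and 1.99 RPM in wt and 5.63 and 10.2 RPM in brm, with inputs of 5.83 and 6.69 RPM (log2 fold change 1.79, SE 0.68, adjusted p = 0.529, edgeR). Among 3 other CYP708A genes, relatives of CYP708A2, none was called, and their log2 fold changes differed in sign. CYP708A1 (AT1G55940) gave 1.30 (SE 0.82, adjusted p = 0.761, edgeR) with levels below input in every H3K27me3 library, and CYP708A3 (AT1G78490) gave −0.23 (SE 0.18, adjusted p = 0.821, edgeR). CYP708A4 (AT3G44970) had 80.5 and 79.0 RPM in wt and 114.7 and 99.5 RPM in brm, with a log2 fold change of 0.43 (SE 0.18, adjusted p = 0.573, edgeR).

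Of 12 genes for enzymes that supply 2,3-oxidosqualene, 3 were marked, in both genotypes, and none was called. The 3 are SQE6 (AT5G24160) and the neighbouring genes AT5G24140 and AT5G24150, named SQP2 and SQP1 in the annotation, which encode squalene epoxidase or related enzymes. AT5G24150 had 99.1 and 124.1 RPM in wt and 89.7 and 69.0 RPM in brm, with inputs of 31.7 and 27.1 RPM. Both brm libraries were lower, and the log2 fold change of −0.49 (SE 0.19) did not pass the test (adjusted p = 0.540, edgeR). The remaining 9, among them HMG1 (AT1G76490), which makes mevalonate, and SQS1 (AT4G34640), which makes squalene, lay below input in every H3K27me3 library. The median log2 fold change of the 12 was 0.30, beside −0.05 over all genes tested, and the 9 unmarked genes held at most 7.59 RPM. At the 3 marked genes the log2 fold change was 0.02 (AT5G24140), −0.49 (AT5G24150) and −0.23 (SQE6).

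The protein-coding genes whose levels over the 6 libraries were most like those of each cyclase were found by the Euclidean distance of log2(RPM per kb + 1). Nearest to THAS1 were MYB114 (AT1G66380) at a distance of 0.25, AT1G50870 at 0.29 and AT1G12070 at 0.29. Nearest to MRN1 were WIP5 (AT1G51220), RR22 (AT3G04280) and MYB46 (AT5G12870), at 0.15, 0.15 and 0.17. Their wt means ran from 47.3 to 58.6 RPM per kb for the THAS1 set and from 68.2 to 74.5 RPM per kb for the MRN1 set. None of the 6 lies in either cluster, and none was called between genotypes (adjusted p = 0.825 to 0.997, edgeR).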

How the data were processed

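H3K27me3 ChIP-seq and input libraries of 14-day-old wt and brm seedlings were used, 2 and 1 per genotype. Genotypes and replicate numbers came from the sample labels. Chromatin was immunoprecipitated with an antibody to H3K27me3 and sequenced on an Illumina Genome Analyser IIx. The authors mapped the reads with Bowtie 0.12.7 to TAIR10 and kept perfect matches to 1 place. SICER 1.1 is also named in the submitters' processing notes. Each line of the deposited files is 1 mapped read of 37 bp, and the values are read counts as deposited by the authors, not normalized and with duplicates kept. Paralogous genes therefore do not share reads, repeats lose them, and overlapping genes share them.

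The 5′ end of each read was moved 75 bp towards the fragment centre and assigned to gene spans of TAIR10.1, whose nuclear chromosomes have the same lengths as those in the files. Its gene models are later than those of TAIR10. Genotypes were compared with edgeR 4.0.16 in R 4.3.3 (quasi-likelihood F test) on the 4 H3K27me3 libraries, with total nuclear reads as library sizes, robust estimation and the filterByExpr filter, and p-values were adjusted by Benjamini-Hochberg over every gene or 500 bp window tested (FDR 0.05). H3K27me3 was compared with input in a second fit over all 6 libraries. All adjusted p-values are from these fits unless DESeq2 1.42.0 is named. SE was the log2 fold change divided by the root of F, and intervals are 95%. With 2 libraries a side, an exact permutation test cannot pass 0.05, and none was run. The labels do not say whether replicates came from separate plantings, while the study's methods call them independent biological samples.

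H3K27me3 islands of each library were found with a procedure modelled on SICER: 1 read per position and strand, windows of 200 bp, gaps up to 600 bp, a Poisson test against the input of the genotype and a Benjamini-Hochberg limit of 0.01. Common regions are the bases where the islands of both replicates overlap. Region ends are therefore accurate to 200 bp at best. Fits and region calls were tested on simulated data.

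The 7 genes, the gene lists and the tests were chosen with earlier results of these data known. Genes named are the 7 members, annotated genes within 10 kb of a cluster, genes of the lists that were called or had the highest or lowest fold change, the 3 protein-coding genes most like THAS1 and the 3 most like MRN1, and BRM. A few other list members are named as examples, chosen after their values were seen. Alternatives were other scalings (TMM), DESeq2, filters, duplicate handling, no shift, wider spans, other windows, stricter regions, a replicate block and leaving out each library. Protein sequences were not used here.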

Additional observations from a re-analysis of the deposited data

How the results depend on the processing

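No setting called any of the 7 cluster genes, in 18 alternatives each, and the lowest adjusted p was 0.282 (CYP705A5, edgeR). CYP705A5 kept its direction under all 18, from −0.29 to −0.16 on the log2 scale. The other 6 had fold changes near 0 whose sign turned under some settings, and the cause was not tested. With 1 read per position and strand, the log2 fold change became 0.0065 at THAS1, 0.037 at CYP708A2, −0.0042 at AT5G47980, −0.038 at MRN1 and −0.11 at CYP705A12. With TMM scaling of those reads it was 0.055 at THAS1, 0.086 at CYP708A2 and −0.056 at CYP705A12. AT5G47980 gave −0.018 with TMM scaling over 10 kb bins and, with 500 bp flanks added, −0.026, where CYP705A12 gave −0.045. Leaving out 1 library at a time moved THAS1 from −0.29 (without wt replicate 2) to 0.12 (without wt replicate 1), AT5G47980 from −0.20 to 0.26, CYP71A16 from −0.27 to 0.11 and CYP705A12 from −0.026 to 0.12. The same step on 1 read per position and strand, added after the data were seen, turned the sign in these cases. Without wt replicate 1, THAS1 gave 0.12, AT5G47980 −0.11, MRN1 −0.067 and CYP705A12 −0.29. Without wt replicate 2, CYP708A2 gave 0.082, MRN1 −0.0080 and CYP71A16 0.078. Without brm replicate 1, THAS1 gave 0.050, CYP708A2 0.0085, MRN1 −0.025 and CYP705A12 −0.099. Without brm replicate 2, CYP708A2 gave 0.066, AT5G47980 −0.032, MRN1 −0.051 and CYP705A12 −0.12.

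Of the windows, 1 was called without the low-count filter, and 0 to 2 when a library was left out: 2 without wt replicate 1, 1 without wt replicate 2 and 0 without either brm library. All 7 genes stayed above input and marked in both genotypes under every alternative run. The layout of the common regions did depend on the setting. With gaps up to 200 bp instead of 600 bp, both clusters split into more regions in each genotype, and some ends moved. Across the genome, genes called higher and lower numbered 24 and 30, and 72 and 61 with DESeq2, 79 and 105 without the filter, 110 and 101 with 1 read per position and strand, 78 and 56 with flanks, 269 and 628 without wt replicate 1 and 8 and 10 without brm replicate 1. The replicate numbers are shared across genotypes without a stated pairing, and the deviations of same-numbered libraries correlated at 0.025 over 30906 genes. With a replicate block, 86 and 94 genes were called, none of the 7 (0) and no window of the clusters, while AT5G42610 passed (log2 fold change −0.98, adjusted p = 0.0447).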
